A study of Homo sapiens with 6 samples.

Results

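The full-length interleukin-33 (IL-33) clones of U87 cells, an established human glioma line, were compared with U87 cells that carried the empty vector. The members were genes that lay at least 1 log2 unit (2-fold) from the control array in the same direction in each of the 3 IL-33 clones, with the higher group above 5 on the log2 scale. Of 18132 genes, 569 met this rule, 256 of them higher in the clones (1.41% of all genes) and 313 lower (1.73%). The expression of all genes had been measured on 6 Affymetrix PrimeView arrays. The control was 1 array of cells with pcDNA3.1 without an insert, and IL-33 clones 3, 5 and 9 had 1 array each. Another 2 arrays held clones 3 and 4 with IL-33 that lacked the nuclear localization signal (ΔNLS). All cells had been stably transfected and selected with G418, so the control carried the vector and the selection too. Each clone is a line of its own, whose differences from the control hold both the construct and whatever else set that clone apart, and with 1 control array these cannot be told apart.

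IL-33 belongs to the IL-1 cytokines and has a nuclear pool as well, held on chromatin by its N-terminal part. Released from cells, it binds the receptor ST2 together with the IL-1 receptor accessory protein and signals through MyD88 and IRAK kinases to NF-κB and MAP kinases, as IL-1 does. In glioma, cytokines made by the tumor cells are known to act on the macrophages and microglia around them.

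Each level below is the log2 signal of the probe set with the highest mean for that gene, with the control first and then clones 3, 5 and 9 in that order. Differences are the mean of the 3 clones minus the control. A level of 4.8, below which most olfactory receptor genes lay, served as background, and a difference that starts or ends below it has no exact fold. The median over all genes was 0.04, so the members were not read against a general shift. The fold itself was used to choose the members and is described without a test. A limma fit over all 6 arrays, in which the control was taken to vary like the clones, called 661 genes higher (3.65%) and 726 lower (4.00%) at an adjusted p under 0.05. "Rose" and "fell" are used below for genes that passed it. The limma calls rest on the ΔNLS arrays, which lend the fit their spread. For a member, the call uses the values that chose it and is no separate support. With only the control and the IL-33 arrays, limma called 0 genes in either direction, with a smallest adjusted p of 0.0666, although 2534 higher and 1911 lower genes had an unadjusted p under 0.05.

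**Figure D1:**
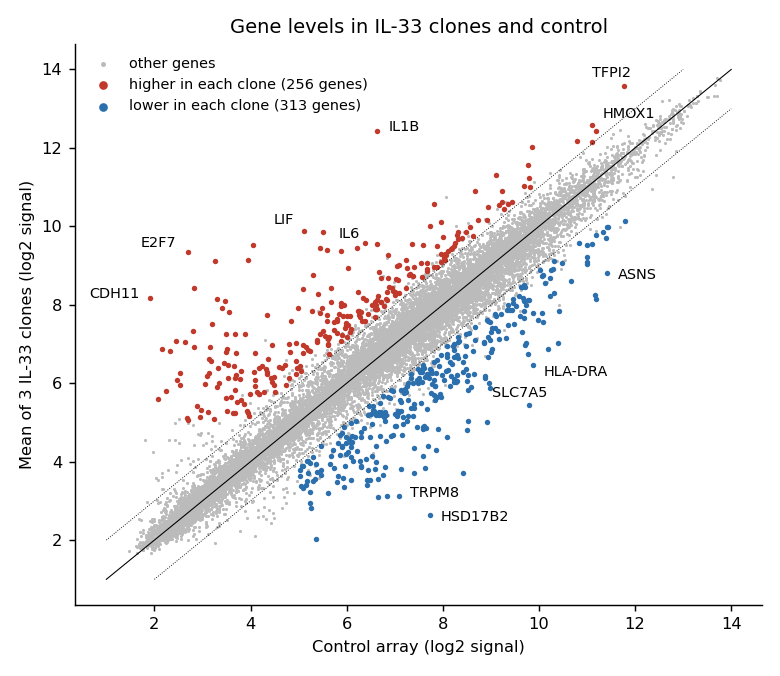
The mean log2 signal of the 3 IL-33 clones (y axis) is plotted against the control array (x axis) for each of 18132 genes. Red points are the 256 genes higher and blue points the 313 genes lower than the control in each clone, the solid line marks equal levels and the dotted lines a 2-fold difference.

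IL33 was below background on the control array (3.46) and reached 8.38, 6.40 and 9.50 in the clones. All clones lay far above the control, and clone 5 carried the least. The mean difference of 4.63 did not pass limma (adjusted p = 0.0575). An array averages all cells of a line, so more cells with a transcript and more transcript per cell cannot be told apart. A probe set of the gene that gave lower signals had 2.52 in the control and 7.15, 5.21 and 6.64 in the clones, so the order of clones 3 and 9 was not the same on each probe set. The receptor chain IL1RL1, which encodes ST2, was under background on all 4 arrays (4.48, and 4.65, 4.73 and 4.59). Its partner IL1RAP was at 7.18 and at 7.18, 7.39 and 7.27. MYD88, the adaptor of the pathway, was at 7.14 in the control, against 7.59, 7.91 and 7.77 in the clones, a difference of 0.61 that did not pass limma (adjusted p = 0.0716).

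The markers of a mesenchymal glioma line were present, with VIM between 13.71 and 13.77 and CD44 between 12.38 and 12.73 on the control and IL-33 arrays. The astrocyte marker GFAP was at 6.43 in the control and 6.40 to 6.41 in the clones. PTPRC (CD45), the pan-leukocyte marker, was at 2.14 to 2.25 and CD14 at 3.28 to 3.50, both under background. Of 9 macrophage and microglia markers, 4 lay above background on some array (CSF1R, TYROBP, C1QA and AIF1). CSF1R was at 7.84 in the control and 6.04, 5.87 and 5.87 in the clones, and TYROBP was at 6.01 to 6.06. The mean level of all 9 was 4.24 in the control and 4.20, 4.14 and 4.09 in the clones. CHI3L1, a marker of mesenchymal glioma, was at 10.41 in the control and 9.49 and 9.64 in clones 3 and 9, but at 4.87 in clone 5.

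Of 38 measured interleukins and cytokines of the IL-6 and TNF families, 4 were past the rule and all 4 were higher. The share was 10.5%, against 1.41% of all genes. IL1B, a main inflammatory cytokine of the IL-1 family, was at 6.64 in the control, against 12.09, 11.68 and 13.50 in the clones. Among the higher members with the control and all 3 clones above 5, it had the largest difference of the nearest clone, and its mean difference was 5.78. LIF, which signals through gp130 like IL-6, was at 5.12 and at 9.47, 9.01 and 11.16. Both genes rose in limma.

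IL6 itself was at 5.60 in the control, against 8.54, 7.54 and 12.07 in the clones. CSF3 (G-CSF), which drives the formation of neutrophils, was at 6.37 and at 9.19, 8.0 and 11.53. Both genes were well above the control in each clone, but clone 9 lay more than 3 log2 units above clone 5, and neither passed limma (adjusted p = 0.211 and 0.17). The other probe set of IL6 was at 4.42 in the control, against 4.77, 4.56 and 6.51 in the clones. Only clone 9 was above background there. Other secreted factors did not reach 2-fold in each clone. CXCL8, the neutrophil chemokine IL-8, was at 8.08 in the control, against 10.33, 9.04 and 12.88, and CXCL2 was at 6.84 and at 8.69, 7.50 and 11.37. In both genes clone 5 was the lowest of the clones and came short of the rule. TSLP, an epithelial cytokine, was at 6.53 and at 7.52, 7.61 and 7.94, and rose by a mean of 1.17. CXCL8, CXCL2 and TSLP were picked after their values were seen.

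Among 39 chemokines, 2 were higher (5.13%) and 1 was lower (2.56%). CCL2, which attracts monocytes, was at 3.10 in the control, against 6.62, 4.46 and 7.48 in the clones. Its level in clone 5 was still under background, so only clones 3 and 9 had a clear signal. CXCL14 was at 3.51 and at 6.58, 7.26 and 6.80, with all clones above background. CCL26 (eotaxin-3), an attractant of eosinophils, went the other way, from 8.15 to 5.94, 6.10 and 5.72.

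Of 31 NF-κB targets and regulators, 4 were past the rule (12.9%), all higher, and limma called 4 higher and 0 lower. The median of the list members whose higher group was above 5 was 0.77, against 0.04 for all genes of that level. C3, the central complement component, was at 5.89 in the control, against 9.84, 7.67 and 10.57 in the clones. TNFAIP3 (A20), a feedback inhibitor of NF-κB, was at 5.87 and at 7.62, 7.58 and 8.92. ICAM1, an adhesion receptor for leukocytes, was at 4.95 and at 6.23, 6.98 and 6.50. PTX3, a secreted pattern recognition protein, was at 8.93 and at 10.08, 9.95 and 10.45. ICAM1 and PTX3 rose in limma, and C3 and TNFAIP3 did not pass it.

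The pathway's own parts did not move as one. IRAK2, a kinase-like protein of the IL-1 receptor complex, rose from 5.60 to 7.42, 7.43 and 8.39. The NF-κB subunit gene RELB was at 6.20 in the control, against 6.82, 7.04 and 7.09, and also rose. RELA, another subunit, was at 8.71 and at 8.39, 8.44 and 8.37. NFKBIA, the inhibitor IκBα, was at 8.75 and at 9.41, 8.84 and 9.98, a difference of 0.66 that did not pass. Of 43 genes of the interferon response, 0 were past the rule, and limma called 2 higher (IFIH1 and PARP14) and 1 lower (IFI6). At the shares of all genes (1.41% higher and 1.73% lower), a list of this size would hold few members, so this was not read as a result.

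**Figure D2:**
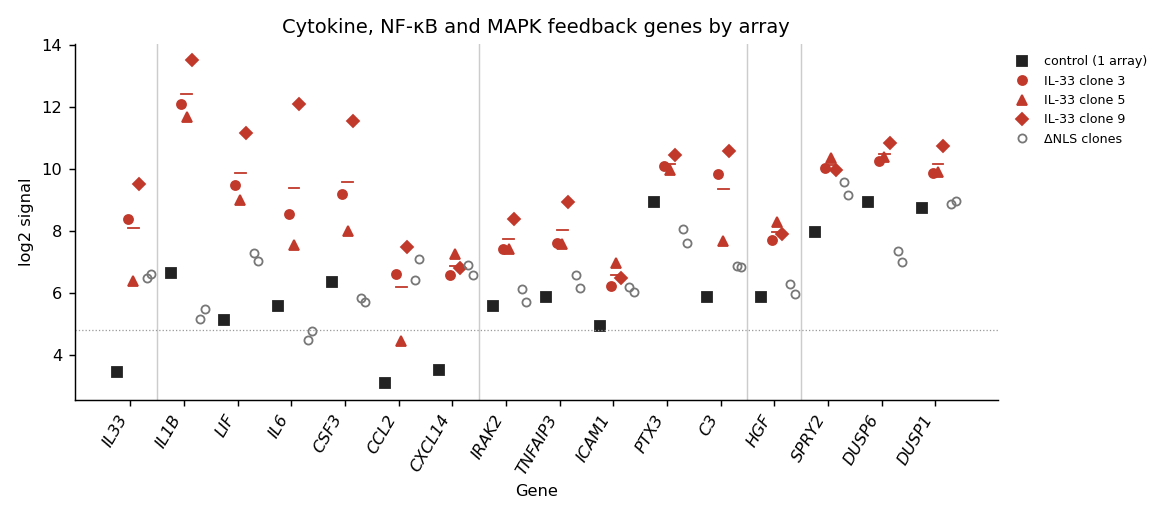
Log2 signals (y axis) of cytokine, NF-κB and MAPK feedback genes (x axis) on each array, with the control as a square, IL-33 clones 3, 5 and 9 as filled symbols with a line at their mean, and ΔNLS clones 3 and 4 as open circles. Clone 9 lies above clones 3 and 5 for IL6 and CSF3, and the dotted line is the background level of 4.8.

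In the order of the clones, IL33 was highest in clone 9, then clone 3, then clone 5. IL1B, LIF, IL6, CSF3, CCL2, C3, TNFAIP3 and PTX3 had that order too. Other genes of these groups did not. CXCL14 and ICAM1 were highest in clone 5, and they and IRAK2 were lowest in clone 3. Among all 256 higher genes the order of IL33 was found in 37 (14.5%). The most common order was clone 5, then 9, then 3 (105 genes, 41%). With 3 clones the order has no test.

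Promoter sequences of RefSeq (GRCh38.p14) were searched on both strands for the letters GGANTTNCC, an NF-κB motif. The windows begin 250 bases before the start of 14425 of the genes measured and run a short way past it. Of these windows, 4.24% held the letters. Of the 4 members of the NF-κB list, 3 had a window, and all 3 (TNFAIP3, ICAM1 and PTX3) held them. Of the 7 cytokines and chemokines past the rule, 4 had a window, and that of IL6 held them. Among the 198 higher members with a window the share was 6.57%, and among the 251 lower ones 3.59%. A match describes letters and says nothing of binding. The first 250 bases, up to the start, are shown for IL6 (chr7:22726950-22727199, + strand), TNFAIP3 (chr6:137867009-137867258, + strand) and ICAM1 (chr19:10270870-10271119, + strand). Matching letters are in capitals, and these genes are members of the inflammatory groups. TNFAIP3 and ICAM1 were added after the matches were seen.
IL6: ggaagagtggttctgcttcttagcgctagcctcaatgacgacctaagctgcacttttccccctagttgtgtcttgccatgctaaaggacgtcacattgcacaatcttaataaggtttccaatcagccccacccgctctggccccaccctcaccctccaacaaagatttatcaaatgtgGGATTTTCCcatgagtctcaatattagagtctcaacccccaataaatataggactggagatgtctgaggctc
TNFAIP3: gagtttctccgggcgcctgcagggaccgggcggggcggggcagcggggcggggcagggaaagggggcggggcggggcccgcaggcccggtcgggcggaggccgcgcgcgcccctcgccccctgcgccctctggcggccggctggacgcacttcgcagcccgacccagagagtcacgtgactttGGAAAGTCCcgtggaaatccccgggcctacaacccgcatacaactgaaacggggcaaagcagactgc
ICAM1: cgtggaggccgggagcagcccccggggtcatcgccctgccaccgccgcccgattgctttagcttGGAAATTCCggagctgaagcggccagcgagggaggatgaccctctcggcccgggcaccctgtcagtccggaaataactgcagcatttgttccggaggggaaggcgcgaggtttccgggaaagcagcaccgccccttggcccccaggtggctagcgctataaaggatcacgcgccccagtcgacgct
The match of IL6 began 72 bases before the start, that of TNFAIP3 67 bases and that of ICAM1 186 bases before it.

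Genes that restrain MAP kinase signaling were also among the higher members, with 3 of 28 past the rule (10.7%) and 0 lower. SPRY2, an inhibitor of receptor tyrosine kinase signaling, rose from 7.96 to 10.04, 10.35 and 9.95. DUSP6, a phosphatase for ERK, rose from 8.95 to 10.27, 10.37 and 10.84. DUSP1, a phosphatase for several MAP kinases, was at 8.73 and at 9.85, 9.89 and 10.75, but did not pass limma (adjusted p = 0.0678). Early genes of the same list stayed near the control. JUN was at 11.02 and at 11.04, 11.02 and 11.33, and FOSL1 at 10.01 and at 10.05, 10.11 and 9.97.

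Of 50 growth factors, 2 were higher and 3 lower (4% and 6%, against 1.41% and 1.73% of all genes). HGF, the ligand of the receptor MET, rose from 5.87 to 7.71, 8.29 and 7.89. GAS6, a ligand of AXL and related receptors, rose from 5.74 to 7.31, 7.79 and 7.59. PDGFC fell from 10.99 to 9.74, 9.41 and 9.39, and FGF1 from 7.97 to 6.04, 6.42 and 6.14. Among 45 receptor tyrosine kinases 1 was higher (2.22%) and 0 lower. TEK, the angiopoietin receptor known from endothelium, was at 3.79 and at 5.46, 7.06 and 5.83, and did not pass limma. The endothelial genes CDH5 (3.58 to 3.74 on the control and IL-33 arrays), VWF (5.68 to 5.79) and PECAM1 (5.11 to 5.39) were near the control in each clone.

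The lower members held a large group that is known to depend on the transcription factor ATF4. Of 40 genes of the ATF4 and unfolded protein response list, 16 were lower in each clone (40%, against 1.73% of all genes) and 0 were higher. In limma 21 of the 40 fell and 0 rose. The median difference of the list genes whose higher group was above 5 was -0.91. The differences of the 16 members ran from -2.91 to -1.11, and all 16 had the control and all clones above 5. ATF4 fell from 11.79 to 10.30, 9.95 and 10.14.

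Genes of amino acid metabolism were among them. ASNS, asparagine synthetase, fell from 11.42 to 8.68, 9.15 and 8.58, and its 4 probe sets gave the same picture. PSAT1, an enzyme of serine synthesis, fell from 10.99 to 9.00, 9.06 and 9.08. SLC7A5, a subunit of the transporter for leucine and other large amino acids, fell from 8.88 to 6.11, 6.18 and 6.30. The clones differed little from each other in these genes. PCK2, mitochondrial phosphoenolpyruvate carboxykinase, fell from 7.95 to 5.72, 5.74 and 5.74, and CTH, which makes cysteine, from 8.24 to 5.73, 6.27 and 6.32. MTHFD2, an enzyme of mitochondrial folate metabolism, fell from 11.39 to 9.67, 9.56 and 9.90.

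Stress-induced regulators fell as well. CHAC1, which degrades glutathione, went from 8.23 to 6.15, 6.10 and 5.86, and TRIB3, a pseudokinase, from 8.43 to 6.32, 6.32 and 6.22. DDIT4, an inhibitor of mTORC1, went from 11.16 to 8.95, 7.29 and 8.50, with clone 5 the lowest. DDIT3 (CHOP) went from 7.49 to 6.45, 6.22 and 6.45. The aminoacyl-tRNA synthetase genes WARS1 (10.49 to 9.12, 9.00 and 9.10) and MARS1 (9.63 to 8.47, 8.48 and 8.40), which were noticed after their values were seen and are not on the list, were past the rule too.

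The chaperone part of the list did not follow. HSPA5 (BiP), the main chaperone of the endoplasmic reticulum, was at 12.35 in the control, against 12.42, 12.43 and 12.46 in the clones. PDIA4, a disulfide isomerase, was at 11.86 and at 12.03, 11.88 and 12.02. XBP1, a list gene that is not a chaperone, was at 9.70 and somewhat lower in each clone, at 9.12, 9.36 and 9.33. None of the 3 passed limma.

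Hypoxia and glycolysis genes were the other large lower group. Of 41 measured, 13 were lower in each clone (31.7%) and 0 higher. Limma called 16 lower and 0 higher, and the median of the list genes whose higher group was above 5 was -0.98. SLC2A1 (GLUT1), a glucose transporter, fell from 10.09 to 8.05, 7.02 and 7.61. PDK1, which restrains pyruvate dehydrogenase, fell from 9.01 to 7.31, 6.44 and 6.66. PFKFB4, a regulator of glycolytic flux, fell from 10.24 to 8.45, 8.25 and 8.01. Clone 5 was the lowest for SLC2A1 and PDK1.

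HK2 (hexokinase 2) fell from 9.71 to 8.55, 8.32 and 8.47, and EGLN1, a prolyl hydroxylase that marks HIF proteins for degradation, from 10.30 to 9.24, 8.99 and 9.08. PDK3, a kinase of the same family as PDK1, was at 7.60 and at 5.79, 3.45 and 5.40, with clone 5 below background, and did not pass limma (adjusted p = 0.114). The abundant enzymes of glycolysis lay close to the control. GAPDH was at 13.49 and at 13.37, 13.24 and 13.30, ENO1 at 12.76 and at 12.49, 12.47 and 12.47, and neither passed. VEGFA, an angiogenic factor induced by hypoxia, was at 11.63 and at 11.24, 10.27 and 11.28.

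**Figure D3:**
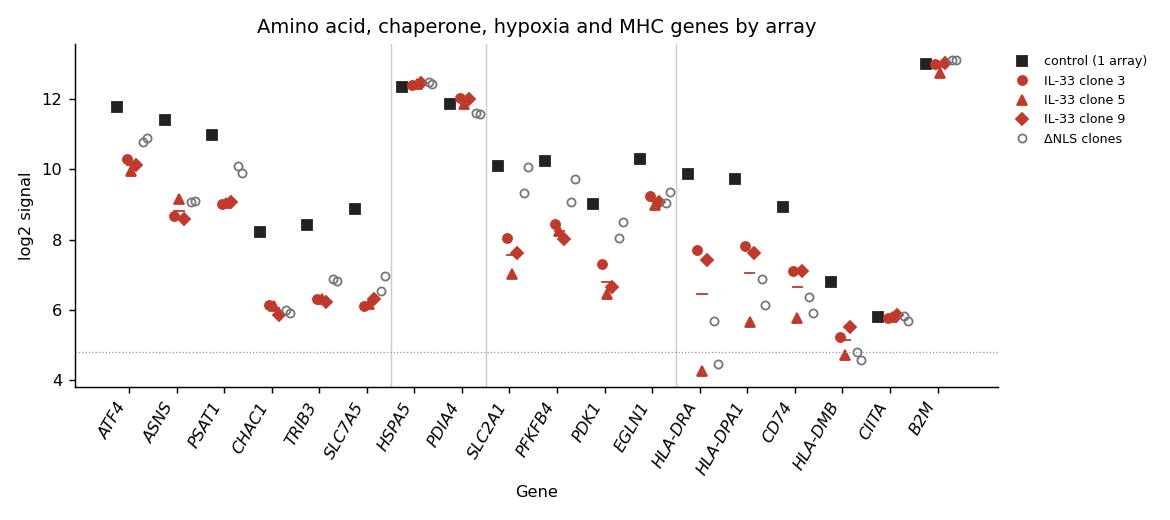
Log2 signals (y axis) of amino acid, chaperone, hypoxia and MHC genes (x axis) on each array, with the control as a square, IL-33 clones 3, 5 and 9 as filled symbols with a line at their mean, and ΔNLS clones 3 and 4 as open circles. ATF4, ASNS and CHAC1 lie below the control in each clone, while HSPA5, PDIA4, CIITA and B2M lie close to it.

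The promoter windows were also searched on both strands for TGATGNAA, an ATF4 motif, and for ACGTG, the core of the hypoxia response element. TGATGNAA was in 2.57% of all windows and ACGTG in 23.9%. Of the 16 ATF4 list members, 15 had a window and 2 of these (ASNS and CHAC1) held TGATGNAA. Of the 13 hypoxia list members, 12 had a window and 8 held ACGTG. Among all lower members 1.99% of windows held TGATGNAA and 27.5% held ACGTG, near the shares of all genes. The windows of ASNS (chr7:97872409-97872658, - strand), CHAC1 (chr15:40953221-40953470, + strand) and PDK3 (chrX:24465036-24465285, + strand) are shown for the amino acid, stress and hypoxia groups, with the match in capitals. PDK3 was added after the matches were seen.
ASNS: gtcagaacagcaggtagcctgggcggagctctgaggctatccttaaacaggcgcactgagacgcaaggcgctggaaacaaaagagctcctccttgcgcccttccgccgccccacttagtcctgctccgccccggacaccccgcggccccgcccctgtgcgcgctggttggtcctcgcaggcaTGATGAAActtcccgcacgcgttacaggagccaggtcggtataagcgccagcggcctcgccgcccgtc
CHAC1: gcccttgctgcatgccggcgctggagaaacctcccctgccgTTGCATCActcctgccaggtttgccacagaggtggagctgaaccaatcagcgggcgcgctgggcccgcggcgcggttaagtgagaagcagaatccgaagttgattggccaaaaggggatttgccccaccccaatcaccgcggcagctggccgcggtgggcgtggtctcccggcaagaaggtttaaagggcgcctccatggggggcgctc
PDK3: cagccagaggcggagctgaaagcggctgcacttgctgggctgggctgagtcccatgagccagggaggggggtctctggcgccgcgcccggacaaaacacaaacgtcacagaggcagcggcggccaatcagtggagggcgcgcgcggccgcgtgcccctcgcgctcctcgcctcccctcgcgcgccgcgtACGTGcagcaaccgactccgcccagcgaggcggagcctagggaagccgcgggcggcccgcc
The match began 68 bases before the start in ASNS, 209 in CHAC1 and 61 in PDK3.

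MHC class II genes made up most of a further lower group. Of 38 measured genes of antigen presentation and ligands of natural killer cells, 7 were lower in each clone (18.4%) and 1 was higher. HLA-DRA, the α chain of HLA-DR, was at 9.87 in the control, against 7.70, 4.24 and 7.42. HLA-DPA1 was at 9.73 and at 7.83, 5.66 and 7.62, and CD74, the invariant chain that chaperones class II dimers, at 8.94 and at 7.11, 5.77 and 7.11. All clones lay below the control, but clone 5 lay far below the others, and these 3 genes did not pass limma (adjusted p = 0.186, 0.114 and 0.0645). HLA-DMA and HLA-DMB, which load peptides on class II, fell from 7.54 to 6.15, 6.26 and 6.42 and from 6.78 to 5.24, 4.71 and 5.51.

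CIITA, the regulator that class II genes depend on, was at 5.79 in the control, against 5.76, 5.79 and 5.85. HLA-DPB1 was at 7.12 and at 7.14, 6.94 and 7.01, unlike its partner chain HLA-DPA1. Probe sets of HLA genes can read close relatives, so the genes are not separate measurements. The class I genes HLA-B (11.18 and 11.43, 10.02 and 11.52) and B2M (13.01 in the control and 12.74 to 13.05 in the clones) had clones on either side of the control. ULBP1, a ligand of the activating receptor NKG2D, fell from 7.62 to 3.66, 3.66 and 4.22, below background. NECTIN2, a ligand of DNAM-1 and TIGIT, rose from 7.96 to 8.97, 9.21 and 9.06. CSF1R, the receptor for M-CSF, fell from 7.84 to 6.04, 5.87 and 5.87.

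Matrix genes leaned lower. Of 91 collagens and matrix glycoproteins, 8 were lower (8.79%) and 3 higher (3.3%). COL1A1, a chain of collagen I, was at 9.77 in the control, against 7.90, 5.70 and 6.67 in the clones. COL5A1 was at 10.41 and at 8.47, 7.39 and 7.70, and FBN1, which forms microfibrils, fell from 11.44 to 10.24, 9.84 and 9.87. Clone 5 was the lowest for all 3. EFEMP1 (fibulin-3) went the other way, from 3.16 in the control to 7.40, 7.0 and 6.36.

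Of 147 matrix proteases and their inhibitors, 8 were higher (5.44%) and 5 lower (3.4%). MMP3 (stromelysin-1) was at 9.10 in the control, against 11.21, 10.40 and 12.35. The aggrecanase ADAMTS5 rose from 6.22 to 9.08, 9.89 and 9.39. The lysosomal proteases CTSS (6.86 to 8.96, 8.90 and 9.95) and CTSL (9.69 to 10.99, 10.98 and 11.10) rose too. TIMP2, an inhibitor of matrix metalloproteinases, rose from 8.63 to 9.83, 9.78 and 9.67, whereas TIMP3, of the same family, was at 7.18 and at 6.13, 3.48 and 5.80. SERPINA1 (α1-antitrypsin) fell from 6.64 to 3.96, 3.19 and 3.54. IGFBP3, which binds insulin-like growth factors, was at 11.18 and at 9.12, 6.32 and 9.00.

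The pathways of TGF-β, Wnt, Notch and Hedgehog had 4 higher and 4 lower genes among 58 (6.9% each, against 1.41% and 1.73% of all genes). FZD8, a Wnt receptor, rose from 5.50 to 9.67 or more in each clone, whereas FZD7, another Wnt receptor, was at 6.69 and at 4.98, 4.01 and 5.00. SMAD3, which carries TGF-β signals to the nucleus, rose from 7.30 to 8.65, 8.89 and 8.76. ID2, an inhibitor of helix-loop-helix factors, was at 9.31 and at 8.09, 5.96 and 7.41.

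Of the 256 higher genes, 90 had a control level under 4.8, so the probe set used for them was not above background there, and their differences have no exact size or rank. The nearest clone was at least 3 log2 units from the control in 28 higher and 9 lower genes. E2F7, a repressor of the E2F family, was at 2.69 in the control, with 9.05, 9.84 and 9.15 in the clones. Its other probe set was above background in the control and moved less, from 5.88 to 6.53, 6.73 and 6.61. CDH11 (cadherin-11) was at 1.91 and at 7.36, 8.60 and 8.58. MAGEA1, a cancer-testis antigen whose gene is known to be silenced by DNA methylation, was at 3.26 and at 8.49, 9.71 and 9.12. G0S2, an inhibitor of triglyceride lipase, was at 4.05 and at 9.80, 11.56 and 7.20, with clone 9 the lowest here. Another of its probe sets was just above background in the control, at 4.86, and at 7.17, 8.81 and 5.58 in the clones.

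SLITRK2 (2.82 and 8.08, 9.42 and 7.76), a neuronal membrane protein, was under background in the control, as was GPR37 (2.44 and 7.26, 7.31 and 6.62), an orphan receptor. SYT1, a synaptic vesicle protein, was at 3.18 and at 6.46, 7.20 and 6.04. Among the lower genes, 69 had all clones under 4.8. HSD17B2, which oxidizes estradiol and testosterone, fell from 7.74 to 2.64, 2.55 and 2.70, all clones far below background. TRPM8, the cold-sensing channel, fell from 7.09 to 3.40, 3.05 and 2.95. ITGA4, an integrin chain, fell from 5.61 to 3.19, 3.11 and 3.28.

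Of 29 complement and coagulation genes, 4 were higher (13.8%) and 1 lower. TFPI2, an inhibitor of serine proteases, was among the strongest signals, with 11.77 in the control and 13.49, 13.46 and 13.75 in the clones. C1S, a protease of the classical pathway, was at 6.23 and at 7.83, 7.41 and 8.29, and CFB, of the alternative pathway, at 4.96 and at 6.27, 6.02 and 6.86. CASP1, the caspase that cleaves IL-1β, rose from 4.10 to 6.61, 7.40 and 6.31, and KYNU, an enzyme of tryptophan breakdown, from 9.85 to 12.16, 11.83 and 12.10. HMOX1 (heme oxygenase 1) was at 11.09 and at 12.19, 12.80 and 12.78.

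Transcription factors of development were seldom past the rule, with 3 of 203 higher (1.48%, near the 1.41% of all genes) and 0 lower. TBX3, a T-box repressor, was at 5.10 in the control, against 8.28, 8.79 and 8.16 in the clones, and FOXF1, a forkhead factor, at 3.48 and at 7.56, 7.90 and 6.34. Solute carriers (5 higher and 5 lower of 334, 1.5% each) and ion channels (3 and 2 of 211, 1.42% and 0.948%) were near the background as well. SLC11A2 (DMT1), an iron transporter, was at 7.06 and at 8.55, 8.61 and 8.76, and SLC38A4, an amino acid transporter, at 5.35 and at 2.19, 1.94 and 1.94.

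Several members with signal on all 4 arrays belonged to no list. PTPRE, a receptor-type tyrosine phosphatase, was at 5.27 and at 7.84, 7.89 and 7.80, a difference of 2.57 with the clones close to each other. RFTN1 (raftlin) was at 6.63 and at 9.13, 9.55 and 9.98. On the lower side, JDP2, a repressor of AP-1, was at 8.51 and at 6.02, 6.10 and 6.02, and CALB2 (calretinin) at 7.38 and at 5.24, 5.15 and 5.13. In all 4 genes the clones differed from each other less than from the control.

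Of 38 actin and contractile genes, 3 were lower (7.89%) and 0 higher. TAGLN (transgelin) was at 8.48 in the control, against 7.32, 6.29 and 5.46 in the clones, and NES (nestin), an intermediate filament of neural stem cells, at 7.28 and at 5.73, 5.89 and 5.12.

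Zinc finger genes named ZNF gave 26 higher (5.35%) and 5 lower genes (1.03%) among 486. Of the 26, 21 lay on chromosome 19, as did 233 of the 486. ZNF91, a repressor of retrotransposons, rose from 2.15 to 6.10, 7.51 and 6.99. ZNF573 rose from 2.07 to 5.34, 6.26 and 5.17. These genes share sequence with each other, so their probe sets may not be independent.

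No member of the mitochondrial respiratory chain (79 genes), the cytosolic ribosomal proteins (73) or sterol and fatty acid synthesis (29) was past the rule. With 1.41% of all genes higher and 1.73% lower, few would be looked for in lists of this size. Their absence was therefore not read as a result. Of 56 genes of DNA replication and mitosis, E2F7 was the only member past the rule (1.79%). In total 98 higher and 86 lower members were on at least 1 of the 33 lists. The lists together held 3085 of the 18132 genes measured.

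**Figure D4:**
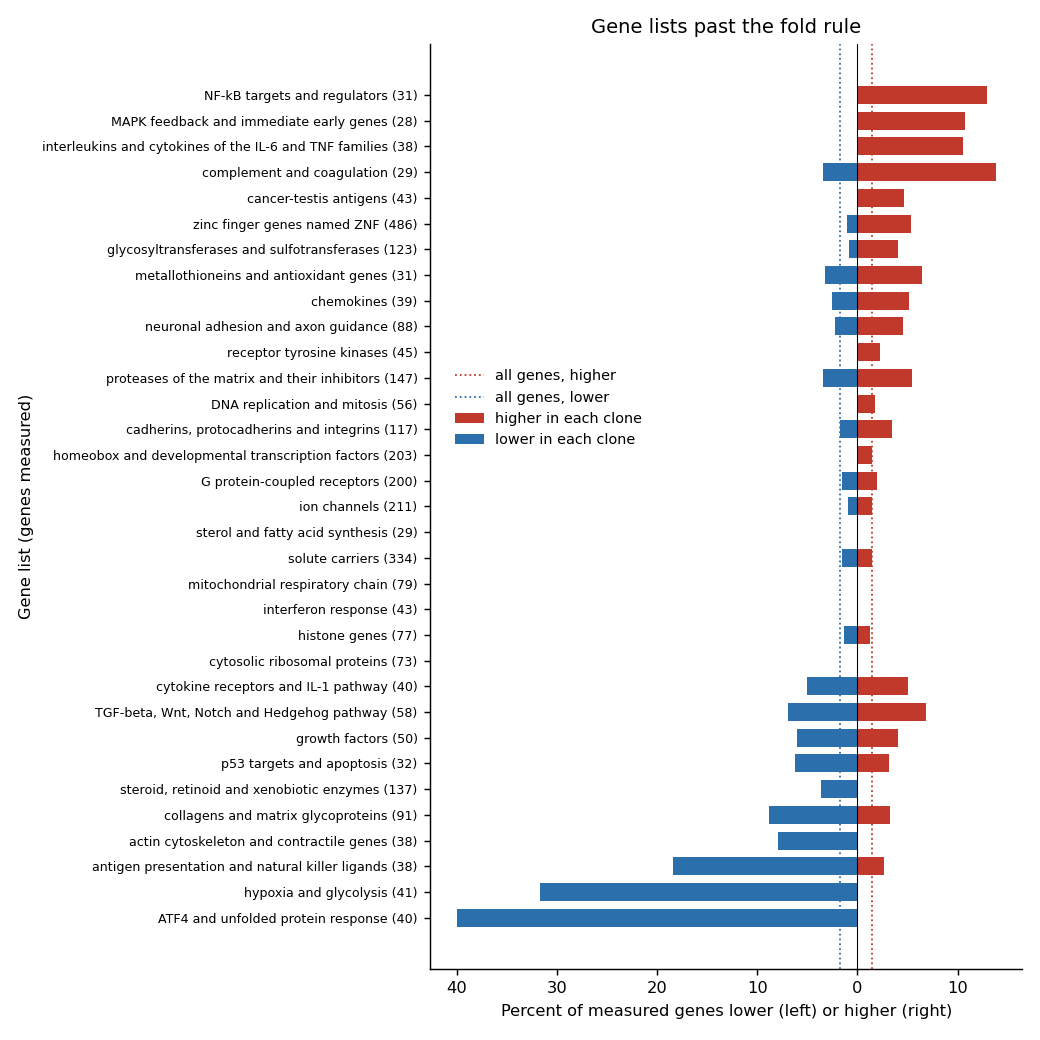
For each gene list (y axis, with the number of genes measured), the percent of genes past the fold rule in each clone is shown, with higher to the right in red and lower to the left in blue. The dotted lines are the shares of all genes (1.41% higher and 1.73% lower), and the ATF4 list reaches 40% and the hypoxia list 31.7% on the lower side.

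The members were not spread evenly over the chromosomes. On chromosome 4, 39 of 702 genes were lower (5.56%) and 1 was higher (0.142%), the annexin gene ANXA10. On chromosome 14, 21 of 570 were lower (3.68%) and 1 higher. On chromosome 18, 18 of 256 were higher (7.03%) and 2 lower, and on chromosome 13, 9 of 305 were higher (2.95%) and 0 lower. Medians were taken over the genes of a chromosome whose higher group was above 5. That of chromosome 4 was -0.37, -0.58 and -0.44 in clones 3, 5 and 9, and that of chromosome 14 was -0.30, -0.40 and -0.37. On chromosome 18 the medians were 0.25, 0.45 and 0.33, and on chromosome 13 they were 0.27, 0.36 and 0.31. All 3 clones therefore had the same sign on each of these chromosomes.

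Members on these chromosomes include PDGFC, CFI and AFP (chromosome 4), JDP2, PCK2 and WARS1 (14), SPRY2 and GAS6 (13) and SMAD2, MALT1 and NPC1 (18). SMAD2 rose from 7.96 to 9.12, 9.45 and 9.31, and MALT1, a protease of NF-κB signaling, from 6.64 to 8.01, 8.31 and 8.31. Without chromosomes 4, 13, 14 and 18, 227 higher and 251 lower genes were past the rule. Of the 313 lower members 60 lay on chromosomes 4 or 14, as did 1 of the 16 ATF4 list members and 1 of the 13 hypoxia list members. Of the 256 higher members 27 lay on chromosomes 13 or 18, and of the 4 cytokines 0 did. The part of these chromosomes in the members' levels was not tested.

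**Figure D5:**
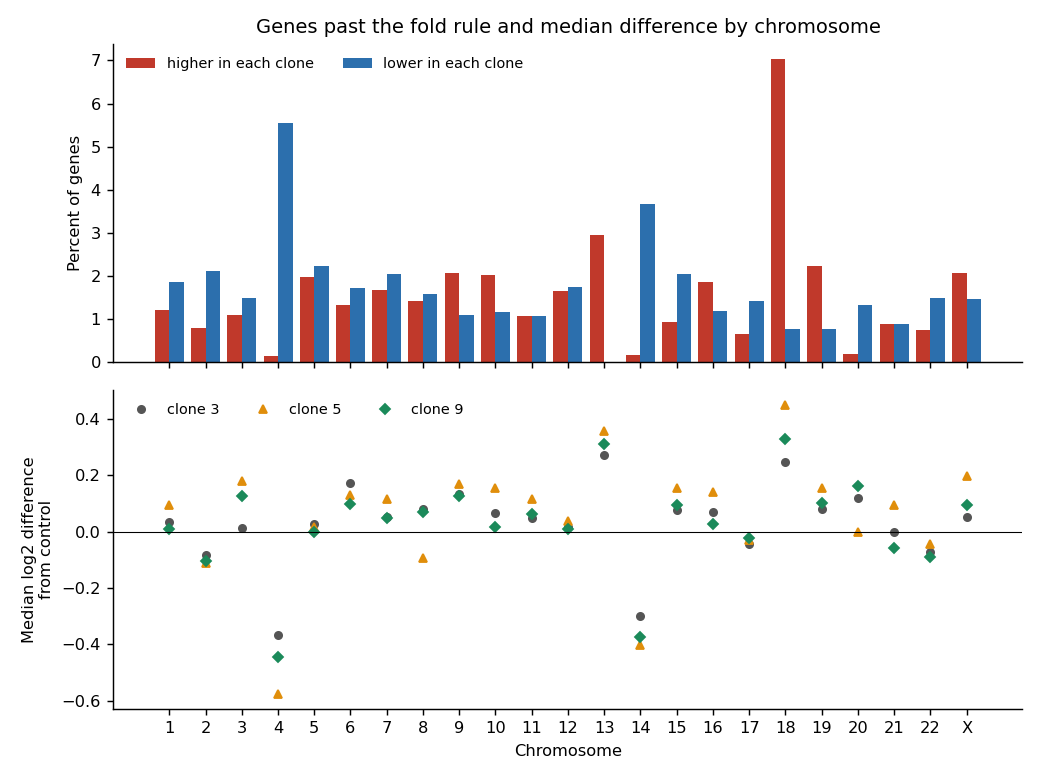
The upper panel gives the percent of genes on each chromosome (x axis) that were higher (red) or lower (blue) in each clone. The lower panel gives the median log2 difference from control in clones 3, 5 and 9, over the chromosome's genes whose higher group was above 5. Chromosomes 4 and 14 have medians below 0 and chromosomes 13 and 18 above 0 in all 3 clones.

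The clones differed in how far they went. With the same level needed, 325 genes were at least 2-fold higher in clone 3, 584 in clone 5 and 485 in clone 9, and 382, 674 and 592 were lower. Among the 256 higher members, clone 3 was nearest to the control in 153, and among the 313 lower ones in 197. Clone 5, with the least IL33, was the furthest in 149 and 183. The range over the clones had a median of 0.60 log2 units in the higher and 0.48 in the lower members, and was at least 2 units in 11 and 31. In 5 genes (BDKRB1, FBN2, IL36B, MMP1 and RSPO3) a clone was at least 2-fold above the control and another at least 2-fold below it.

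The edge of the rule was narrow. CCNJ, whose nearest clone lay 1.0015 above the control, was just inside, and STRIP2, at 0.9998, just outside. On the lower side TTLL1, at -1.0017, was inside and PADI3, at -0.9999, outside. Of the higher members, 162 had a further probe set above 5, and in 82 of these all such probe sets were past the rule. In the lower members these numbers were 168 and 96, and 0 members had a probe set past the rule in the opposite direction.

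The ΔNLS clones were set beside the IL-33 clones for the genes above. Of the 256 higher members, both ΔNLS clones were at least 2-fold above the control in 158 and at least 2-fold below it in 6. Of the 313 lower members, both were at least 2-fold below it in 206 and above it in 9. The median ΔNLS difference was 1.47 in the higher and -1.61 in the lower members. The IL-33 and ΔNLS clones share the control array, so this overlap was not read as a result. The ΔNLS arrays also had another distribution of signals. The sorted values differed by 0.154 to 0.161 on average between a ΔNLS array and the other arrays, but by 0.0084 to 0.023 within the control and IL-33 arrays, so the construct and the set of arrays cannot be told apart. IL33 was at 6.50 and 6.62 in ΔNLS clones 3 and 4. IL1B was at 5.18 and 5.50, below both the control and each IL-33 clone. IL6 (4.48 and 4.77) and CSF3 (5.83 and 5.70) were likewise below the control. LIF was at 7.30 and 7.03, between the control and the IL-33 clones, on the probe set used here. On its other probe sets the ΔNLS clones lay near the control, at 5.18 and 5.15 against 4.96 and at 4.13 and 4.22 against 4.41. The mean of the IL-33 clones lay above that of the ΔNLS clones by 7.08 for IL1B, 4.76 for IL6, 3.81 for CSF3 and 2.71 for LIF. These differences are described without a test, since the genes were chosen for high values in the IL-33 clones.

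CCL2 was at 6.42 and 7.09 in the ΔNLS clones and CXCL14 at 6.89 and 6.60, within or near the range of the IL-33 clones. ATF4 was at 10.78 and 10.91, above each IL-33 clone and below the control, and ASNS at 9.06 and 9.10, within their range. SLC2A1 was at 9.34 and 10.06, above each IL-33 clone. HLA-DRA was at 5.67 and 4.45, within the range of the IL-33 clones. E2F7 (9.14 and 8.87) and HSD17B2 (2.53 and 2.71) were close to the IL-33 clones. CFI, a regulator of complement, was at 6.65 in the control, against 3.02, 2.91 and 3.35 in the IL-33 clones, but at 7.25 and 7.14 in the ΔNLS clones.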

How the data were processed

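Total RNA of U87 cells was labelled by 3′ in vitro transcription and hybridised to PrimeView arrays. The deposited values are log2 signals, 1 per probe set, which the authors had already normalized. Partek 6.0 is named in the submitters' processing notes, while the way of normalizing is not given in the sources used here. That the log has base 2 was taken from the range of the values. Of 49395 probe sets, 44994 carried a lone gene symbol, 1832 several and 2569 none. Only the first were used, and the brightest on average over the 6 arrays stood for a gene. Of 18132 genes, 11735 had several probe sets, and 18112 were in the RefSeq gene table of GRCh38.p14, which gave the chromosomes.

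The test was that of limma 3.58.1 under R 4.3.3 (lmFit, then eBayes with a trend, two-sided), with 3 group means, 3 residual and 2.81 prior degrees of freedom and Benjamini-Hochberg adjustment over all genes. The study's methods name a test made for counts, with a false discovery rate of 0.01 and a 2-fold change, which these values do not allow. The background of 4.8 is close to the 95th percentile (4.81) of 333 olfactory receptor genes. Arrays have no read depth, and their number limits the precision. The labels do not say whether clones were grown or run apart, so the spread behind the p-values is that between these clones, which may be technical.

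The rule, the 33 gene lists and the named genes were chosen with earlier results of these data known. Named were IL33, the 12 higher and 12 lower genes with the largest difference of the nearest clone among those above 5 on all 4 arrays, the 8 higher and 8 lower genes with a side at background and the highest level on the other, up to 4 members of each list and the genes at the edge of the rule, 127 in all. Not all of them are printed, and further members and list genes are given for their role. Alternatives were a stricter fold, other level minimums, other summaries of probe sets, quantile normalization, other eBayes settings, only the arrays compared and leaving out each clone.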

Additional observations from a re-analysis of the deposited data

Results flagged for a closer look

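In 4 named genes the 3 IL-33 clones lay at least 2-fold above the control and both ΔNLS clones at least 2-fold below it. They were picked for these opposite signs, so the difference between the constructs is described without a test. IL1B was 5.78 above the control in the IL-33 clones and -1.30 in the ΔNLS clones, a difference of 7.08. For LPAR1, a receptor for lysophosphatidic acid, these values were 2.44, -1.29 and 3.73. For DUSP6 they were 1.54, -1.76 and 3.30. For LRRN3, a neuronal leucine-rich repeat protein, they were 1.48, -1.69 and 3.18. LPAR1 was at 5.49 in the control, at 7.68, 8.60 and 7.50 in the IL-33 clones and at 3.99 and 4.41 in the ΔNLS clones. LRRN3 was at 6.60, at 8.17, 7.98 and 8.09 and at 5.07 and 4.74. Construct and set of arrays cannot be told apart in these values.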

How the results depend on the processing

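At a difference of at least 1.5 log2 units in each clone, 112 higher and 125 lower genes were past the rule in place of 256 and 313. Leaving out an IL-33 clone gave 276 to 373 higher and 336 to 449 lower genes, the most without clone 3. Averaging a gene's probe sets, the rule gave 179 and 263, of which 166 and 229 were among the members, and the other settings of the rule stayed within 1.5 times. Limma called 661 higher and 726 lower genes. It called 0 and 0 with only the control and IL-33 arrays. Leaving out each array in turn gave 0 to 765 higher and 0 to 885 lower genes. Without IL-33 clone 9 it called 149 and 192, and without ΔNLS clone 3 or ΔNLS clone 4 it called 0 in both directions (smallest adjusted p 0.0655 and 0.068), with 2533 and 2532 higher and 1911 and 1909 lower genes under 0.05 before adjustment. At an adjusted p under 0.01 with a 2-fold change it called 60 and 92. Fewer arrays leave fewer residual degrees of freedom in these fits. Of the 127 named genes, 103 lost the limma call with only 4 arrays or without a ΔNLS array. Without IL-33 clone 9, 33 lost it. With averaged probe sets or quantile normalization 0 changed direction. Leaving out arrays or changing eBayes could not change it, since all 3 clones of a named gene lay on 1 side of the control. No paired analysis was possible because the control array carries no clone number, so the groups compared share fewer than 2 numbers.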
